A study of Mus musculus with 8 samples.

Results

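The genes described here are 34 genes of glycolysis and of the hypoxia-inducible factor (HIF) pathway, chosen by name: 21 enzymes, transporters and regulators of glucose breakdown, 7 HIF subunits and HIF regulators, and 6 HIF targets. Each was read from the array probe set whose only annotated gene was that gene, and a gene with several was read from the brightest, by its mean over the 8 arrays. This gave values for 31 of the 34 genes, among 19938 genes measured in all: 18 enzymes and transporters, 7 HIF regulators and 6 HIF targets. Gapdh lay only on probe sets shared with other genes, and Gpi1 and Eno1 were not matched to a probe set, so these 3 genes were not analysed here. No filter on dim genes was applied: 29 of the 31 genes had a mean level above the median gene (log2 expression 6.43), and Egln3 and Ddit4 lay below it.

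All 8 samples were macrophages that had matured from mouse bone marrow over 10 days in M-CSF (10 ng/ml). They were kept overnight without serum and then given murine IL-6 (50 ng/ml) for 4 hours. The 4 IL6raKO cultures came from IL6ralpha flox/flox LysMCre tg/wt mice, in which Cre recombinase is driven from the lysozyme M gene of myeloid cells, and the 4 Ctrl cultures from IL6ralpha flox/flox mice without Cre. Both groups thus carried floxed Il6ra alleles, Cre was present in the IL6raKO mice alone, and every culture analysed here received IL-6, so loss of the receptor and other effects of Cre cannot be told apart. The comparison asks how loss of the IL-6 receptor alpha chain bears on the expression profile of macrophages exposed to IL-6. The labels call the arrays biological replicates without saying that each came from a separate animal, so the p-values below measure the spread between these samples.

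Glycolysis splits glucose into pyruvate, and cells that rely on it export lactate made from that pyruvate. HIF-1 is a pair of HIF-1α and ARNT that switches on glucose transporters and most glycolytic enzymes. In oxygen, prolyl hydroxylases of the EGLN family mark the alpha subunits, and the VHL protein sends them to degradation. Macrophages are known to lean on glycolysis and to stabilise HIF-1α when activated by microbial products, even with oxygen present. HIF binds DNA at a core of ACGTG or GCGTG, called the hypoxia response element.

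To show where this core lies, promoter sequences were read from RefSeq (build GRCm38.p6), which held 46 start sites for 32 of the 34 genes. Windows ran from 250 bases before to 50 bases after a start site, and both strands were searched. Windows of nearby start sites of a gene can overlap, as for Aldoa, so the same letters can be counted more than once. The letters ACGTG occurred in 26 of the 46 windows (56.5%), against 19.6% of all 32851 promoter windows. They occurred in 17 of 34 windows of the enzymes and transporters (50%), 4 of 7 of the HIF regulators (57.1%) and 5 of 5 of the HIF targets with a sequence. The letters GCGTG occurred in 27 of the 46 windows (58.7%), against 32.4% of all windows. The palindrome CACGTG, which holds ACGTG on both strands and is also an E-box of other factors, occurred in 6 windows (13%), against 7.15% of all. The windows of these genes were also richer in G and C, with a median of 63% against 52.7%, and a match is a description of letters, not a site.

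The 4 promoters below are those of Ldha and Bnip3, the genes with the lowest p-values in the comparison, of P4ha1, whose groups did not overlap, and of Pdk1, which had the highest difference and no ACGTG. Each runs 5′ to 3′ in the direction of the gene and ends at the base before the start site, with ACGTG and its reverse complement CACGT in capitals, and overlapping matches run together. They lie at chr7:46845554-46845803 (plus strand) for Ldha, chr7:138909507-138909756 (minus strand) for Bnip3, chr10:59323046-59323295 (plus strand) for P4ha1 and chr2:71872974-71873223 (plus strand) for Pdk1. For Ldha and Pdk1, the most upstream of 2 listed start sites is shown.
Ldha: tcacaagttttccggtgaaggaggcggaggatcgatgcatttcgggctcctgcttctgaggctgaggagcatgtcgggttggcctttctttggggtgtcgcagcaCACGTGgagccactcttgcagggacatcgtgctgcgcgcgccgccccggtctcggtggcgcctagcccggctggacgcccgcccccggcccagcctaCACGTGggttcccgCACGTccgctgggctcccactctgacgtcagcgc
Bnip3: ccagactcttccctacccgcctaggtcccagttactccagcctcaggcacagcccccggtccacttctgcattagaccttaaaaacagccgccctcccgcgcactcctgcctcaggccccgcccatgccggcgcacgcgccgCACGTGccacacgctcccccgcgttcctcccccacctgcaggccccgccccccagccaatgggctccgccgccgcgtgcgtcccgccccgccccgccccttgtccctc
P4ha1: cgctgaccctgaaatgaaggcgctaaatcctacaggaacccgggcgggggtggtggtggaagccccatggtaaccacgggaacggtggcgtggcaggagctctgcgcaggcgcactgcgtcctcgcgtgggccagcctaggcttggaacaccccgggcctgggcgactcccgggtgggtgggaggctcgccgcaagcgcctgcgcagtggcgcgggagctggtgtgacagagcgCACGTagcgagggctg
Pdk1: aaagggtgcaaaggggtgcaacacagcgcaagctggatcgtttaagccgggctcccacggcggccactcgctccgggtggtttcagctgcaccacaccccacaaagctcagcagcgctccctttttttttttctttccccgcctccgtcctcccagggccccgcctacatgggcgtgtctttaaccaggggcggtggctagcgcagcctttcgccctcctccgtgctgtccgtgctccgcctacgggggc
Ldha held 5 matches over both strands, in the palindromes CACGTG at 2 places and in a single CACGT near the start, and Bnip3 held 1 palindrome. P4ha1 held 1 match close to its start site. The second start sites of Ldha and Pdk1 held no ACGTG. The other core, GCGTG, is not in capitals above. Over the full windows, to 50 bases past the start site, GCGTG occurred 2 times for Ldha, 3 for Bnip3, 2 for P4ha1 and 2 for Pdk1. The window of the second start site held 2 for Ldha and 0 for Pdk1.

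The targeted gene Il6ra, which encodes the receptor chain, had log2 expression of 7.75, 8.10, 7.91 and 7.92 on the IL6raKO arrays, against 8.43, 8.40, 8.40 and 8.45 on the Ctrl arrays. All IL6raKO values lay below all Ctrl values, with the IL6raKO level at 70.6% of the Ctrl level. The limma adjusted p over all genes was 0.0607, and the part of the transcript covered by its probes was not analysed here. All 9 measured macrophage markers lay above the median gene, and their summed signal was 15.27 to 15.28 on a log2 scale in IL6raKO and 15.17 to 15.35 in Ctrl. All 8 mast cell and basophil markers were lower in mean in IL6raKO, with a summed log2 signal of 9.21 to 10.04 in IL6raKO and 9.53 to 10.48 in Ctrl. In limma, 0 of the 8 had an unadjusted p under 0.05. Means were also lower for 5 of 5 B cell, 5 of 6 dendritic cell, 5 of 6 stromal and 7 of 10 neutrophil markers. The same held for 3 of 4 T cell, 2 of 3 erythroid and 4 of 9 macrophage markers, and for 54.2% of all genes. The part of such other cells in the results below was not tested. In bulk cultures, fewer cells of a type and less RNA per cell cannot be told apart. Array medians over all probe sets lay between 6.31 and 6.35, and Ctrl replicate 4 stood apart on the first principal component (21.5, against -6.6 to 4.8 for the other arrays).

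Glycolysis and HIF genes were expressed at close to the same level in IL6raKO and Ctrl macrophages on average, and none passed the test. In limma with Benjamini-Hochberg adjustment over all genes, 0 of 31 genes had an adjusted p under 0.05, with adjusted p-values from 0.647 to 0.999, where 0.0301% of all genes were called. At an unadjusted p under 0.05, 2 of the 31 genes (6.45%) differed, Ldha and Bnip3, both lower in IL6raKO. The share over all genes was 7.28%, made up of 4.54% lower and 2.74% higher in IL6raKO. The IL6raKO and Ctrl arrays did not overlap for 2 of the 31 genes, Bnip3 and P4ha1, against 4.44% of all genes. The median difference, IL6raKO minus Ctrl on the log2 scale, was -0.03, against -0.01 over all genes. Mean levels were lower in IL6raKO for 20 of the 31 genes (64.5%), against 54.2% of all genes. A difference of at least 0.1 in size was seen in 9 of the 31 genes (29%), against 30.6% of all genes. The single differences ran from -0.20 for Ldha to 0.15 for Pdk1. No 95% confidence interval of a gene reached below -0.41 (Epas1) or above 0.34 (Pdk1), that is, below 75.3% or above 127% of the Ctrl level. Intervals extended 0.12 to 0.28 to each side of the difference (median 0.16), with no allowance for the number of genes tested.

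**Figure D1:**
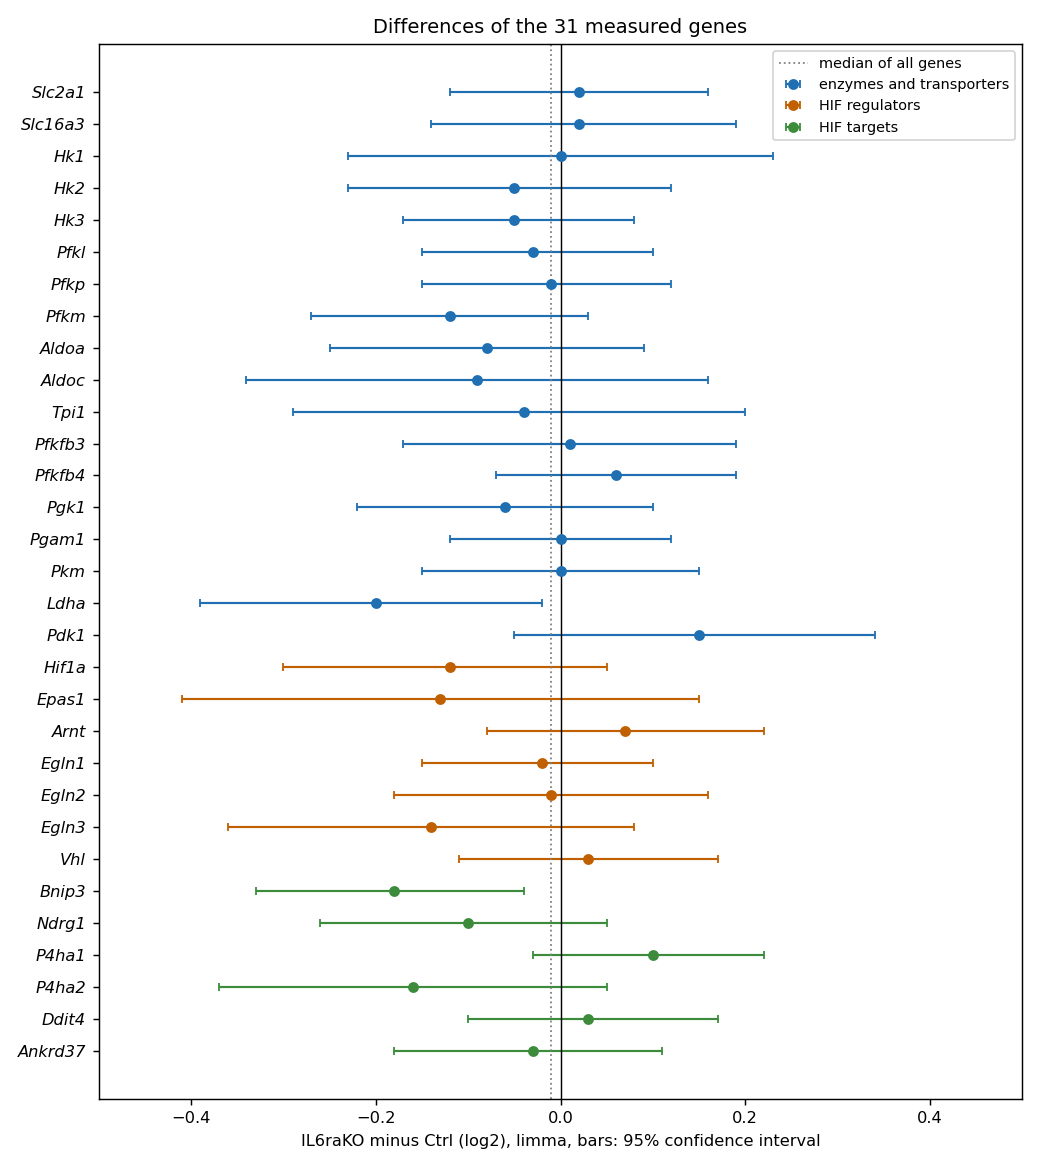
Difference in log2 expression, IL6raKO minus Ctrl, of the 31 measured genes, with the 95% confidence interval from limma (4 arrays a group). Points are coloured by class, the solid line marks 0 and the dotted line the median of all genes (-0.01), and the intervals of Ldha and Bnip3 alone leave out 0, before adjustment.

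Glucose enters the cell through GLUT1, encoded by Slc2a1, and lactate leaves it through MCT4, encoded by Slc16a3. Slc2a1 was at 9.29, 9.27, 9.40 and 9.20 on the IL6raKO arrays, against 9.20, 9.32, 9.29 and 9.29 on the Ctrl arrays. The groups overlapped fully, and the difference was 0.02 (SE 0.06, 95% confidence interval -0.12 to 0.16, limma adjusted p = 0.975). Slc16a3 averaged 7.27 ± 0.09 in IL6raKO and 7.25 ± 0.12 in Ctrl (SD, n = 4 each), a difference of 0.02 (95% confidence interval -0.14 to 0.19).

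Hexokinases trap glucose in the cell by phosphorylation. The inducible Hk2 was at 8.42, 8.74, 8.59 and 8.49 on the IL6raKO arrays, against 8.50, 8.57, 8.67 and 8.72 on the Ctrl arrays. Its lowest and its highest value both came from IL6raKO arrays, and the difference was -0.05 (SE 0.08, 95% confidence interval -0.23 to 0.12, limma adjusted p = 0.908). Hk3, a hexokinase of myeloid cells, averaged 8.43 ± 0.03 in IL6raKO and 8.47 ± 0.05 in Ctrl (SD, n = 4 each). The Hk1 value needs care. The brighter of its 2 own probe sets is annotated by 1 accession, which 16 probe sets named for both Hk1 and the ribosomal protein gene Rpl17 also carry. Those 16 had means of 10.32 to 12.03 over the 8 arrays. The brighter Hk1 probe set lay within that range, at 10.94 ± 0.17 in IL6raKO and 10.94 ± 0.19 in Ctrl (SD, n = 4 each). Whether it reads Rpl17 was not tested, and its value stands for Hk1 in all counts and medians here. The dimmer probe set carries 8 accessions and varied less, with 7.90 ± 0.04 in IL6raKO and 7.91 ± 0.08 in Ctrl (SD, n = 4 each). Both gave a difference of 0.00, with 95% confidence intervals of -0.23 to 0.23 for the brighter among all genes and -0.14 to 0.14 for the dimmer among all probe sets.

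Phosphofructokinase commits sugar to glycolysis, and its liver, platelet and muscle forms are encoded by Pfkl, Pfkp and Pfkm. They differed by -0.03, -0.01 and -0.12, with confidence intervals that all held 0. Pfkm had the lowest p of the 3, with 6.91 ± 0.05 in IL6raKO and 7.02 ± 0.11 in Ctrl (SD, n = 4 each, limma adjusted p = 0.729). The bifunctional enzymes Pfkfb3 and Pfkfb4 set the level of fructose 2,6-bisphosphate, the activator of phosphofructokinase. Pfkfb3 was at 9.23, 9.29, 9.17 and 9.06 on the IL6raKO arrays, against 9.18, 9.25, 9.31 and 8.99 on the Ctrl arrays. Replicate 4 was the lowest array in both groups, the ranges overlapped, and the difference was 0.01 (SE 0.08, 95% confidence interval -0.17 to 0.19, limma adjusted p = 0.989). Pfkfb4 averaged 6.85 ± 0.06 in IL6raKO and 6.78 ± 0.05 in Ctrl (SD, n = 4 each), a difference of 0.06.

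Aldolases A and C (Aldoa, Aldoc) split fructose 1,6-bisphosphate, and triose phosphate isomerase (Tpi1) interconverts the products. Their differences were -0.08, -0.09 and -0.04, and none had a limma adjusted p under 0.836. With Pfkl, Pfkp and Pfkm, all 6 measured enzymes of the upper pathway had a lower mean in IL6raKO, as had 54.2% of all genes. The 6 differences were -0.12 to -0.01, each within its replicate spread. In Ctrl, 2 of these genes had an array far from the other 3. Aldoa was at 11.31 in Ctrl replicate 1 and 11.57 to 11.62 in the other Ctrl arrays, and Tpi1 at 9.60 in Ctrl replicate 4 and 9.02 to 9.12 in the others. Without Ctrl replicate 4 the Tpi1 difference was 0.09, and without Ctrl replicate 1 the Aldoa difference was -0.15. The Pfkp difference was 0.01 without IL6raKO replicate 1 and 0.01 without Ctrl replicate 3, so the shared sign was not stable.

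Of the lower pathway, phosphoglycerate kinase (Pgk1), phosphoglycerate mutase (Pgam1) and pyruvate kinase (Pkm) differed by -0.06, 0.00 and 0.00. Pgam1 was among the tightest estimates, at 9.44 ± 0.04 in IL6raKO and 9.44 ± 0.02 in Ctrl (SD, n = 4 each, 95% confidence interval -0.12 to 0.12). A dimmer Pkm probe set, which carries 2 accessions, differed by -0.17 (95% confidence interval -0.38 to 0.04), against 0.00 for the one with 8. A further probe set of Pgk1 and a further one of Pgam1 had the same values as the one used on every array, to 2 decimals. These are not read as separate measurements. The remaining probe sets gave -0.06 for Pgk1 and -0.05 for Pgam1.

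Ldha encodes the lactate dehydrogenase subunit that turns pyruvate into lactate, and had the largest difference of the 31 genes. It was at 10.92, 10.89, 11.05 and 11.01 on the IL6raKO arrays, against 10.94, 11.18, 11.24 and 11.31 on the Ctrl arrays. Ctrl replicates 2 to 4 lay above all IL6raKO arrays, and Ctrl replicate 1 lay among them. The difference was -0.20 (SE 0.08, 95% confidence interval -0.39 to -0.02), with the IL6raKO level at 86.8% of the Ctrl level. The unadjusted p in limma was 0.0312 and the adjusted p 0.669, so Ldha did not pass over all genes. With 1 array left out at a time the difference lay between -0.28, without Ctrl replicate 1 (limma unadjusted p = 0.0024, adjusted p = 0.385), and -0.16, without Ctrl replicate 4 (unadjusted p = 0.0883). Among the Ctrl arrays, Ldha and the summed mast cell and basophil signal were both lowest in replicate 1 and highest in replicate 4. The summed signal was 9.53 and 10.48 there. In IL6raKO it was again lowest in replicate 1 and highest in replicate 4 (9.21 and 10.04). Ldha was instead lowest in IL6raKO replicate 2 (10.89) and highest in IL6raKO replicate 3 (11.05). Other values set the same Ctrl replicates apart. On the first principal component, Ctrl replicate 1 was the lowest Ctrl array (-4.4) and Ctrl replicate 4 the highest (21.5). The summed macrophage signal ran the other way, from 15.35 in Ctrl replicate 1 to 15.17 in Ctrl replicate 4. The part of mast cells and basophils in the Ldha values was not tested. Ldhb, the other subunit gene, differed by 0.02 (95% confidence interval -0.20 to 0.24).

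Pdk1 encodes a kinase that closes pyruvate dehydrogenase and so keeps pyruvate out of mitochondria. It averaged 7.17 ± 0.18 in IL6raKO and 7.03 ± 0.08 in Ctrl (SD, n = 4 each), which is 0.15 higher in IL6raKO, with a 95% confidence interval of -0.05 to 0.34 and an adjusted p of 0.743 in limma. IL6raKO replicate 4 was its highest array, at 7.44, and without it the difference was 0.06. The opposing phosphatase gene Pdp1 was at 9.73, 9.65, 9.74 and 9.68 on the IL6raKO arrays, against 9.58, 9.50, 9.63 and 9.55 on the Ctrl arrays. These groups did not overlap, and the difference of 0.14 had an unadjusted p of 0.0404 and a limma adjusted p of 0.67.

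**Figure D2:**
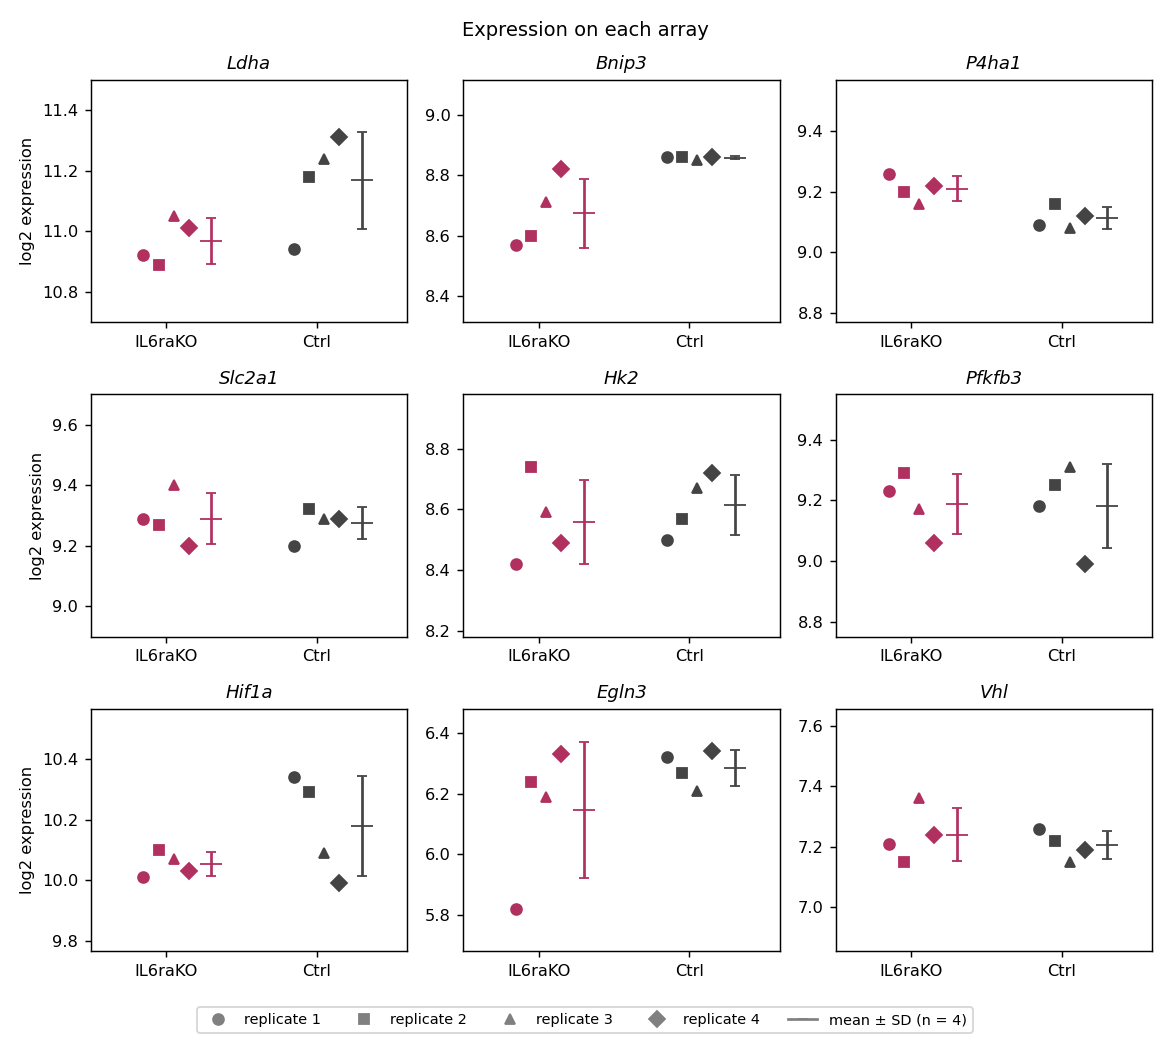
Log2 expression of 9 genes on each array, with IL6raKO left and Ctrl right in each panel, each axis spanning 0.8, symbols for replicate numbers, and the mean ± SD (n = 4) beside the points. Ldha overlaps through Ctrl replicate 1 (10.94), Bnip3 is nearly constant in Ctrl (SD 0.01), and Slc2a1, Hk2, Pfkfb3 and Vhl overlap.

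Among the HIF subunits, Hif1a encodes the alpha subunit of HIF-1, Epas1 that of HIF-2, and Arnt their shared partner. Hif1a was at 10.01, 10.10, 10.07 and 10.03 on the IL6raKO arrays, against 10.34, 10.29, 10.09 and 9.99 on the Ctrl arrays. The IL6raKO arrays were close to each other (SD 0.04), and the Ctrl arrays spread from below to well above them (SD 0.16). The difference was -0.12 (SE 0.08, 95% confidence interval -0.30 to 0.05, limma adjusted p = 0.761). Without Ctrl replicate 4, the lowest, it was -0.19 (unadjusted p = 0.0283), and without Ctrl replicate 1 it was -0.07. Epas1 had the widest interval of the 31 genes, with 7.20 ± 0.30 in IL6raKO and 7.33 ± 0.12 in Ctrl (SD, n = 4 each), and a difference of -0.13. Its IL6raKO arrays included both the lowest and the highest value of all 8, at 6.85 in replicate 1 and 7.57 in replicate 3. Without the first of these the difference was -0.01, and without the second it was -0.25 (unadjusted p = 0.032, limma adjusted p = 0.855). Arnt differed by 0.07 (95% confidence interval -0.08 to 0.22). These are transcript levels, and HIF-1α is controlled largely through its protein, which arrays do not measure.

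The prolyl hydroxylases Egln1 and Egln2 differed by -0.02 and -0.01, with 95% confidence intervals of -0.15 to 0.10 and -0.18 to 0.16. Egln3, a hydroxylase that HIF itself induces, was at 5.82, 6.24, 6.19 and 6.33 on the IL6raKO arrays, against 6.32, 6.27, 6.21 and 6.34 on the Ctrl arrays. IL6raKO replicate 1 was far below the other 7 arrays, which lay within the range of Ctrl or just under it. The Egln3 difference was -0.14 (SE 0.10, 95% confidence interval -0.36 to 0.08, limma adjusted p = 0.787), and without IL6raKO replicate 1 it was -0.03. Vhl, the substrate receptor of the ligase that marks HIF for degradation, was at 7.21, 7.15, 7.36 and 7.24 on the IL6raKO arrays, against 7.26, 7.22, 7.15 and 7.19 on the Ctrl arrays. Its groups overlapped, with a difference of 0.03 (95% confidence interval -0.11 to 0.17). The median difference over the 7 HIF subunits and regulators was -0.02, with 5 lower and 2 higher in mean.

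The 6 HIF targets outside glycolysis had a median difference of -0.07, with 4 lower and 2 higher in mean, and 0 passed over all genes. Bnip3, a mitochondrial protein that promotes removal of mitochondria, was at 8.57, 8.60, 8.71 and 8.82 on the IL6raKO arrays, against 8.86, 8.86, 8.85 and 8.86 on the Ctrl arrays. All IL6raKO values lay below all Ctrl values, as for 2.37% of all genes. The difference was -0.18 (SE 0.07, 95% confidence interval -0.33 to -0.04, limma unadjusted p = 0.019, adjusted p = 0.647), with the IL6raKO level at 88% of the Ctrl level. Bnip3 has another probe set with the same number of accessions, and where either lies in the genome was not analysed here. This other probe set did not show the difference. It was at 8.41, 8.52, 8.69 and 8.75 on the IL6raKO arrays, against 8.65, 8.49, 8.48 and 8.80 on the Ctrl arrays, with a difference of -0.01 (95% confidence interval -0.25 to 0.22). The order of the IL6raKO arrays was the same on both probe sets, while the Ctrl arrays were level on the brighter and ran from 8.48 to 8.80 on the dimmer.

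P4ha1 and P4ha2 encode alpha subunits of collagen prolyl 4-hydroxylase, and their differences had opposite signs. P4ha1 was at 9.26, 9.20, 9.16 and 9.22 on the IL6raKO arrays, against 9.09, 9.16, 9.08 and 9.12 on the Ctrl arrays. All IL6raKO values lay above all Ctrl values, as for 2.07% of all genes, though the nearest arrays of the groups were equal to 2 decimals. The difference of 0.10 had a 95% confidence interval of -0.03 to 0.22 (limma adjusted p = 0.726). P4ha2 was at 6.95, 6.68, 6.72 and 6.98 on the IL6raKO arrays, against 6.77, 7.07, 7.05 and 7.10 on the Ctrl arrays. Ctrl replicate 1 lay among the IL6raKO arrays and the other Ctrl arrays above them. The P4ha2 difference was -0.16 (95% confidence interval -0.37 to 0.05), and without Ctrl replicate 1 it was -0.24 (limma adjusted p = 0.505).

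Ndrg1, a stress-induced protein, differed by -0.10 (95% confidence interval -0.26 to 0.05). Ddit4, an inhibitor of mTORC1, differed by 0.03 (95% confidence interval -0.10 to 0.17), and Ankrd37, an ankyrin repeat protein, by -0.03 (95% confidence interval -0.18 to 0.11).

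**Figure D3:**
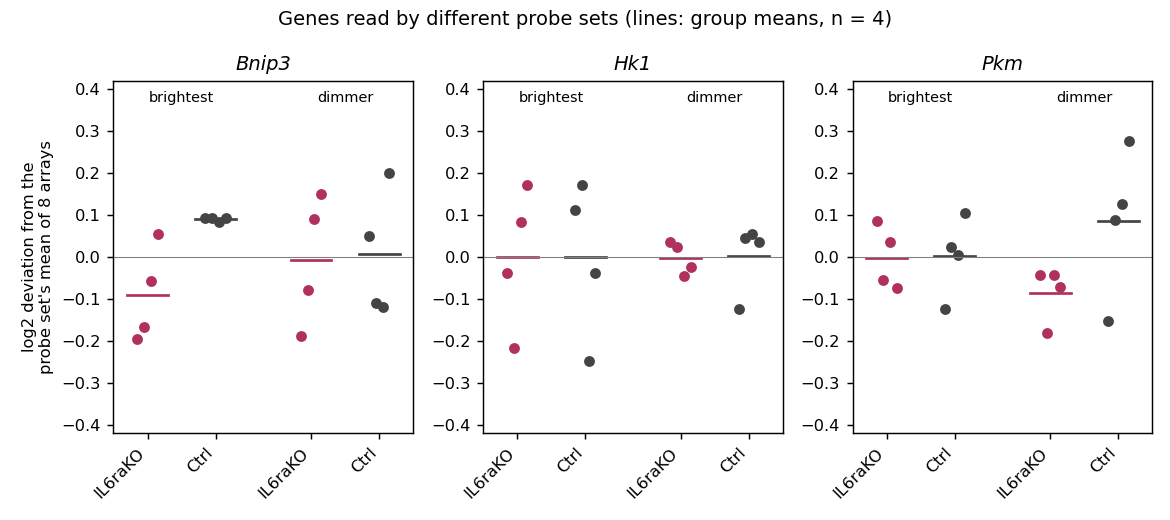
Log2 deviation of each array from the mean of 8 arrays, for the brightest probe set used here and a dimmer probe set of Bnip3, Hk1 and Pkm, with IL6raKO left of Ctrl and lines at the group means (n = 4). The Bnip3 groups separate on the brightest probe set (difference -0.18) and not on the dimmer (-0.01), while Pkm differs by 0.00 and -0.17.

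The genes did not move as a block between genotypes. Each array was summarised by the median, over the genes of a class, of the deviation from the gene's mean of 8 arrays. For the 18 enzymes and transporters this was -0.01, -0.05, 0.02 and -0.01 on the IL6raKO arrays, against -0.05, 0.01, 0.01 and 0.06 on the Ctrl arrays. The lowest and the highest Ctrl array enclosed all IL6raKO arrays to 2 decimals. In Ctrl replicate 1, 3 of these 18 genes lay above their own mean, against 14 in Ctrl replicate 3 and 13 in Ctrl replicate 4. In IL6raKO, between 6 and 10 of the 18 did so. For the HIF targets the array medians were 0.06, 0.01, -0.03 and -0.01 in IL6raKO, against -0.02, 0.00, 0.07 and 0.07 in Ctrl, and these overlapped too.

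**Figure D4:**
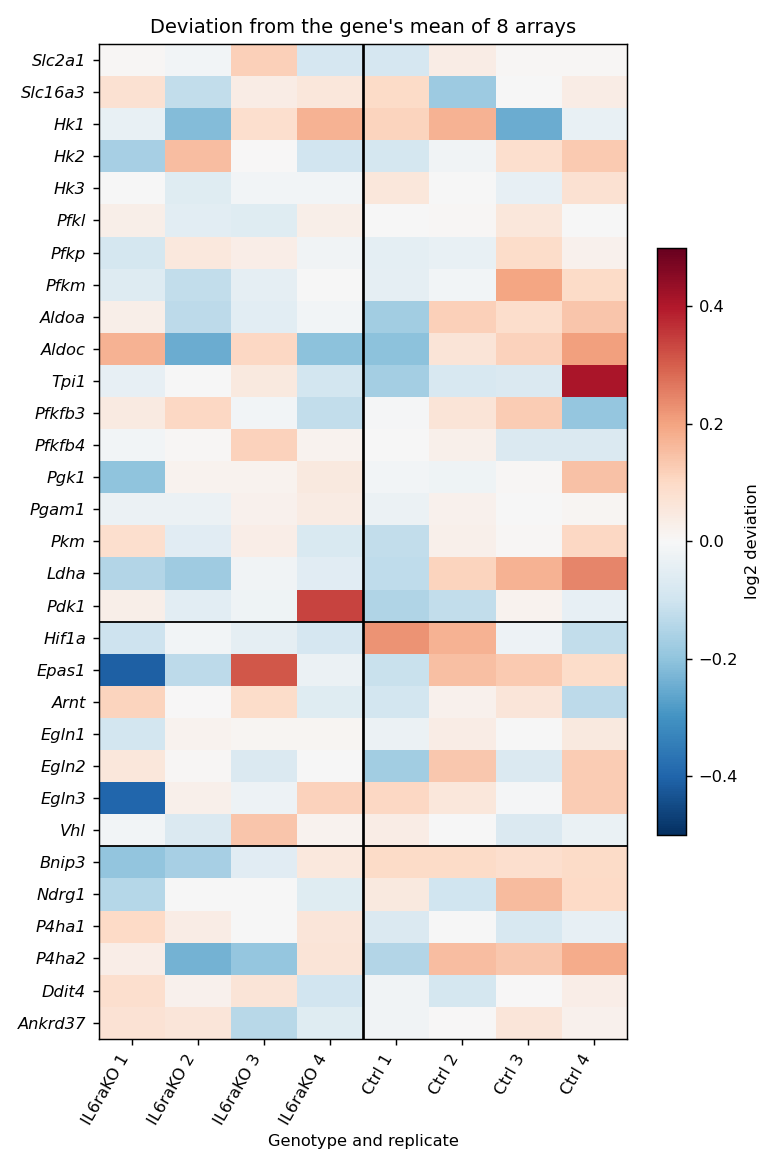
Log2 deviation of each of the 31 genes (rows, by class) from its mean over 8 arrays, with the 4 IL6raKO arrays left of the line and the 4 Ctrl arrays right of it. Enzymes are mostly low in Ctrl replicate 1 (3 of 18 above their mean) and mostly high in Ctrl replicates 3 and 4 (14 and 13 of 18), and no class separates the genotypes.

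Other genes of these pathways were read from 3 lists, of which 72 of 82 genes were measured. None of the 72 passed over all genes, and 6 (8.33%) had an unadjusted p under 0.05, 3 lower and 3 higher in IL6raKO, against 7.28% of all genes. The median difference over the 72 was 0.01. Vegfa, the endothelial growth factor and a known HIF target, stood apart. It was at 9.23, 9.28, 9.42 and 9.18 on the IL6raKO arrays, against 8.93, 8.89, 8.95 and 8.91 on the Ctrl arrays. All IL6raKO arrays were above all Ctrl arrays, by a mean of 0.36 (SE 0.07, 95% confidence interval 0.22 to 0.50, limma adjusted p = 0.237). It passed under a variance model with a trend and robust fit (limma adjusted p = 0.0234). It did not pass under any other alternative run, with limma adjusted p from 0.0552 among genes above the median level to 0.59 over all probe sets, and 0.424 with the replicate number as a block.

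Cited2, which competes with HIF-1α for the coactivators p300 and CBP, was at 9.53, 9.57, 9.51 and 9.56 on the IL6raKO arrays, against 9.36, 9.27, 9.39 and 9.42 on the Ctrl arrays. The groups did not overlap, with a difference of 0.18 (SE 0.06, unadjusted p = 0.01, limma adjusted p = 0.612). Slc2a6, a glucose transporter-like protein of lysosomes, was at 6.96, 6.88, 6.99 and 6.79 on the IL6raKO arrays, against 7.10, 7.06, 7.16 and 7.24 on the Ctrl arrays. These did not overlap either, with a difference of -0.23 (SE 0.07, unadjusted p = 0.00578, limma adjusted p = 0.566). Fbp2, a fructose bisphosphatase, was dim, at 5.49, 5.65, 5.43 and 5.58 on the IL6raKO arrays, against 5.64, 5.82, 5.97 and 5.65 on the Ctrl arrays. The groups overlapped, with a difference of -0.23 (SE 0.09, unadjusted p = 0.0194, limma adjusted p = 0.648). Hmox1, haem oxygenase, was at 11.52, 11.47, 11.55 and 11.60 on the IL6raKO arrays, against 11.58, 11.79, 11.77 and 11.68 on the Ctrl arrays. These groups overlapped too, with a difference of -0.17 (SE 0.07, unadjusted p = 0.0291, limma adjusted p = 0.669). Adm, Car9, Kdm3a and Ero1a, further HIF targets, differed by 0.01, -0.02, 0.10 and 0.06, and the HIF asparaginyl hydroxylase gene Hif1an by -0.01. Adm was dim, with means of 5.06 in IL6raKO and 5.05 in Ctrl, below the 25th percentile of all genes (5.37).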

How the data were processed

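Biotin-labelled cDNA of 8 macrophage cultures was measured on Affymetrix arrays, per the labels. The authors deposited log2 values of 35556 probe sets, for which the submitters' processing notes name RMA and R 2.13.1. No genome build or further step is given in these sources, and the log2 scale was read from the range, 1.96 to 14.2. RMA compresses differences of dim probe sets. The number of arrays limits the precision.

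GEO's platform annotation gave 1 gene symbol for 21789 probe sets, several for 1621 and none for 12146. All 19938 genes were fitted together with limma 3.58.1 in R 4.3.3 (lmFit and eBayes, IL6raKO minus Ctrl, no covariate, two-sided, Benjamini-Hochberg over all genes, threshold 0.05), a procedure tested on simulated data. Same-numbered replicates did not deviate together (correlations -0.01 to 0.04) and were not treated as pairs. Alternatives were other variance models, filters, normalizations, probe sets and left-out arrays.

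The genes, lists and alternatives were chosen with earlier results of these data known. By rule, values on every array are given for those of the 34 genes at an unadjusted p under 0.05 and for 8 of them set by role, of which Gapdh was not measured alone. Genes of the 3 other pathway lists are named where they reach that p. P4ha1, P4ha2, the dimmer Bnip3 probe set and further pathway genes that do not reach that p were added after their values were seen.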

Additional observations from a re-analysis of the deposited data

Results flagged for a closer look

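Among 80 sets of 4 values, 1 per gene or class and genotype, 6 had 1 array well away from the remaining arrays of its group. About 4 would be so by chance. Aldoa was at 11.31 in Ctrl replicate 1 and 11.57 to 11.62 in the other Ctrl arrays, and P4ha2 at 6.77 in the same array and 7.05 to 7.10 in the others. Tpi1 was at 9.60 in Ctrl replicate 4 and 9.02 to 9.12 in the other Ctrl arrays. In IL6raKO replicate 1, Pgk1 was at 10.60 (10.82 to 10.85 in the other IL6raKO arrays) and Egln1 at 7.88 (7.98 to 7.99). The median deviation of the 7 HIF subunits and regulators was -0.09 in IL6raKO replicate 1 and 0.00 to 0.01 in the other IL6raKO arrays.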

How the results depend on the processing

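No alternative called any of the 31 genes at an adjusted p under 0.05. With the replicate number as a block, 0 genes of the 31 were called and 2 had an unadjusted p under 0.05, as without it. That count of 2 was 1 when a gene's probe sets were averaged and 1 with the dimmest own probe set of each gene, an alternative chosen after seeing the data, since Bnip3 dropped out. With 1 array left out at a time it lay between 0 (without IL6raKO replicate 1 or 2) and 4 (without Ctrl replicate 1, with Aldoa, Ldha, Bnip3 and P4ha2). It was 1 without Ctrl replicate 3, where Bnip3 alone was left. The median difference of the HIF targets was -0.02 with the dimmest own probe sets, against -0.07. Of 556 recomputed differences of the 31 genes under 18 alternatives, 43 had the other sign, in 12 genes whose intervals all held 0. Over all genes the count of calls was 6, and 22 with a trended and robust variance model, 11 with either filter on dim genes, 0 with the block or all probe sets, and 0 or 1 with an array left out.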

Other observations

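Mpc1, a subunit of the mitochondrial pyruvate carrier, was named here after its values were seen. It was at 7.74, 8.69, 7.76 and 8.75 on the IL6raKO arrays, against 8.36, 7.83, 7.51 and 7.82 on the Ctrl arrays. The spread within each genotype, 1.01 in IL6raKO and 0.85 in Ctrl, was larger than the difference of 0.35 (SE 0.25, limma adjusted p = 0.778). IL6raKO replicates 2 and 4 and Ctrl replicate 1 were high, and the other 5 arrays low. Lox, lysyl oxidase, was likewise spread within groups, by 1.29 in IL6raKO and 0.67 in Ctrl.

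None of the marker lists of other cell types held a gene with an adjusted p under 0.05 in limma. Their median differences were -0.11 for 10 neutrophil genes, -0.15 for 8 mast cell and basophil genes, -0.09 for 5 B cell genes, -0.14 for 4 T cell genes, -0.16 for 3 erythroid genes, -0.06 for 6 dendritic cell genes and -0.11 for 6 stromal genes, against 0.01 for the 9 macrophage genes. At an unadjusted p under 0.05 there were 3 of the 4 T cell genes (2 lower and 1 higher in IL6raKO, with differences of -0.26 to 0.22 over the list), 1 each of the neutrophil (10%), dendritic cell (16.7%), stromal (16.7%) and macrophage (11.1%) genes, all lower in IL6raKO, and 0 of the other lists, against 7.28% of all genes.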
